A study of Drosophila melanogaster with 32 samples.

Results

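Wnt genes of the larval ovary are described here: the ligands wg, Wnt2, Wnt4, Wnt5 and Wnt6, the receptors fz, fz2 and fz3, and the feedback genes nkd and Notum. They were chosen by their FlyBase symbols, and 10 of the 16257 genes in the deposited count table are members. RNA was sequenced from ovarian cells of Drosophila melanogaster that expressed GFP and had been collected by flow cytometry. Each sorted cell type carried an RNAi hairpin against hpo, the Hippo kinase, or against yki, the transcriptional coactivator that Hippo signalling restrains.

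Somatic cells were bab:GAL4>UAS hpo RNAi, UAS GFP or bab:GAL4>UAS yki RNAi, UAS GFP, and germ line cells were nos:GAL4>UAS hpo RNAi, UAS GFP or nos:GAL4>UAS yki RNAi, UAS GFP. The nos:GAL4 stock also carries UAS-Dcr-2, so the driver stock and the cell type cannot be told apart between soma and germ line. Terminal filaments, the somatic stacks that found each ovariole, begin to form at the early stage (72 hours AEL, after egg laying), are partly built at the mid stage (96 hours) and are complete at the late stage (120 hours, labelled white pupae). Somatic cells were analysed at all 3 stages. Germ line cells were analysed mid and late. Each of the 10 groups held 3 libraries, which the study calls biological replicates. Every group therefore carried a GAL4 driver, GFP and a hairpin, and no comparison is with cells free of RNAi.

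Wnt proteins are secreted, lipid-modified ligands that bind Frizzled receptors together with the co-receptor Arrow. In the canonical branch this stabilises Armadillo, the fly beta-catenin, which acts in the nucleus with the factor Pangolin. Frizzled also serves planar cell polarity. In the adult fly ovary, somatic cells of the germ line stem cell niche are known to express several Wnt ligands.

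Library totals were 15196773 to 75088445 estimated counts. Levels are given as CPM, the count divided by the library total and multiplied by 1000000. In the soma, hpo averaged 14.6 to 21.4 CPM over the 3 hpo RNAi groups, against 88.1 to 125 CPM over the yki RNAi groups, and yki averaged 21.5 to 27.6 CPM with hpo RNAi, against 6.45 to 14 CPM with yki RNAi. In the germ line the hpo groups were as far apart, 7.89 and 12.9 CPM with hpo RNAi against 58.2 and 74.2 CPM with yki RNAi. There yki averaged 12.3 CPM (10.3 to 15.8) with hpo RNAi mid, against 8.01 CPM (6.92 to 8.58) with yki RNAi mid, and the libraries did not overlap. Late, it averaged 9.76 CPM with hpo RNAi and 8.73 CPM with yki RNAi, with overlapping libraries. The summed somatic ovary markers (10 genes) were 2469 to 7349 CPM in somatic libraries and 160 to 429 CPM in germ line libraries. Of 11 germ line markers 10 were in the table, and their sum was 632 to 1265 CPM in the soma, carried by tud and spn-E, against 7566 to 9896 CPM in the germ line. The germ line marker vas had a median of 2.28 CPM in somatic libraries and 1827 CPM in germ line libraries. One germ line library stood apart. In hpo RNAi mid replicate 1 the somatic markers summed to 429 CPM, against 160 to 326 CPM in the other 11 germ line libraries, with Lmx1a at 42.5 CPM and ptc at 36.6 CPM. The markers bab2, hh and zfh1 were also highest in that library. Its tj (5.11 CPM) and fax (170 CPM) were not, with germ line libraries reaching 6.30 and 208 CPM. In sorted pools, fewer cells of a type and less RNA per cell cannot be told apart.

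**Figure D1:**
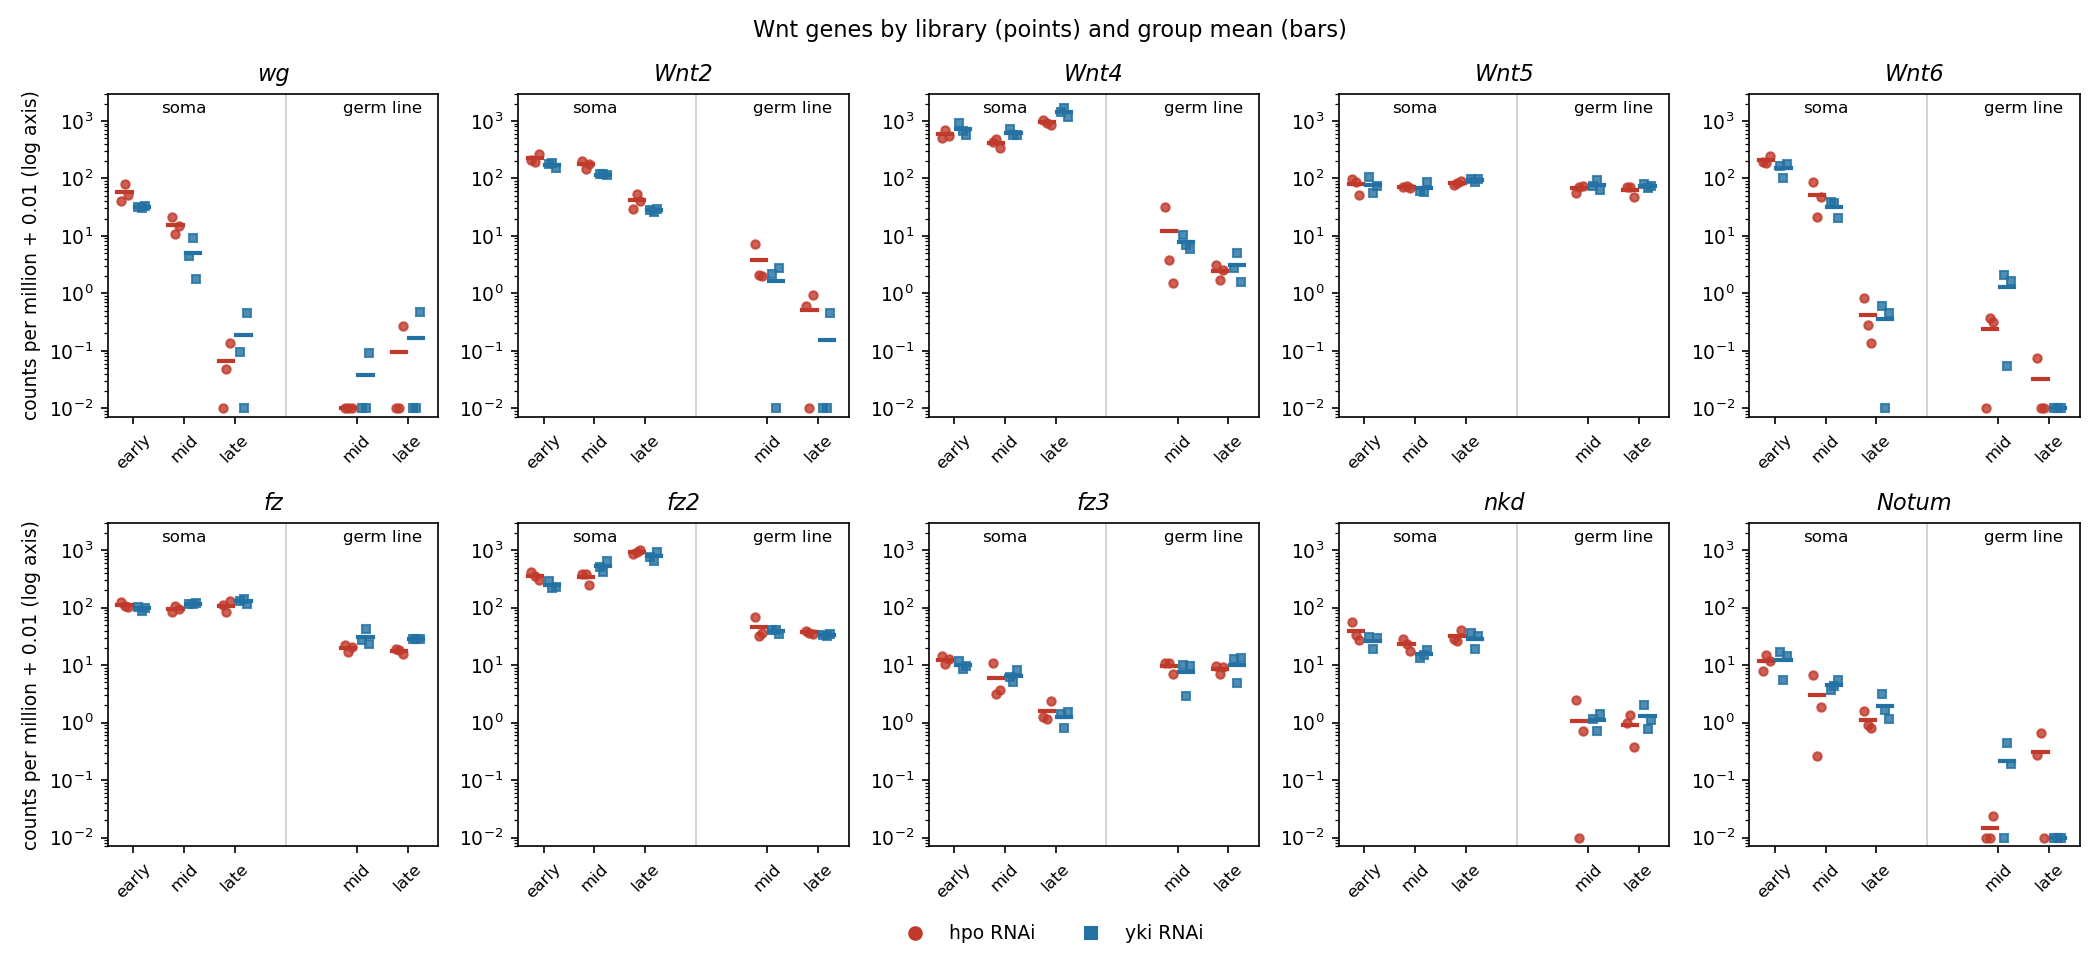
CPM of the 10 Wnt genes in each library, on a log axis after adding 0.01, by stage in somatic cells (left of each panel) and germ line cells (right). Circles are hpo RNAi and squares yki RNAi libraries, and bars are group means of 3 libraries. The wg and Wnt6 libraries of the late soma lie below 1 CPM, while Wnt4 is at 332 CPM or more in every somatic library.

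The ligand wingless (wg, FBgn0284084) is the founding Wnt of the fly and patterns segments and imaginal discs. With hpo RNAi, wg had 40.8, 80.8 and 51.1 CPM in the early soma, 21.0, 10.9 and 14.7 CPM in the mid soma, and 0, 0.039 and 0.127 CPM in the late soma. With yki RNAi the values were 32.4, 31.0 and 33.0 CPM early, 4.52, 8.98 and 1.80 CPM mid, and 0.0858, 0 and 0.443 CPM late. No library of one stage overlapped one of another stage within either RNAi. Late somatic libraries held between 0 and 13 wg counts each.

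Pooled over the 3 libraries of a group, the late soma held 5 wg counts with hpo RNAi, against 5270 in the early soma, which is 1121-fold lower in CPM (exact 95% interval 480 to 3453). With yki RNAi the late soma held 16 counts against 4207 early, 165-fold lower (101 to 289). Against the mid soma, late wg was 301-fold lower with hpo RNAi (129 to 927) and 31.2-fold lower with yki RNAi (19.1 to 54.9). These intervals cover counting error, not the spread between libraries, and single libraries moved the folds. With yki RNAi, 13 of the 16 late counts were in replicate 3, without which late wg was 565-fold lower than early (193 to 2739) and 107-fold lower than mid (36.5 to 520), from 3 counts. Without yki RNAi mid replicate 2 the fold against mid was 17.9 (10.8 to 31.8). With hpo RNAi and without late replicate 3, late wg was 2172-fold lower than early (601 to 17936) and 583-fold lower than mid (161 to 4814), from 2 counts. In each of these late wg lay below the earlier stage. The loss of wg by the late stage was known when the gene was chosen, so its stage values are given without a test and wg is left out of the stage counts that follow.

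In the germ line wg was at 0 in 9 of 12 libraries, and 1 library in each of 3 groups held 5 to 16 counts, at most 0.47 CPM. The germ line with hpo RNAi mid held no wg count, which allows up to 0.0247 CPM (3 counts over the group), and the mid soma with hpo RNAi was at least 579-fold higher than that floor. By the late stage wg in the soma was near its level in the germ line, with 0.0553 ± 0.0651 CPM in the soma with hpo RNAi and 0.0855 ± 0.148 CPM in the germ line (SD, n = 3 each). With yki RNAi late, the means were 0.176 ± 0.235 CPM in the soma and 0.157 ± 0.271 CPM in the germ line.

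Wnt6 (FBgn0031902), a ligand expressed beside wg in fly imaginal discs, had the same order of levels over the stages. The hpo RNAi soma had Wnt6 at 189, 183 and 246 CPM early, 86.6, 21.2 and 48.0 CPM mid, and 0.832, 0.273 and 0.127 CPM late. The yki RNAi soma had Wnt6 at 166, 103 and 179 CPM early, 38.9, 37.7 and 20.2 CPM mid, and 0.601, 0 and 0.443 CPM late. As for wg, the libraries of the 3 stages did not overlap.

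Late against mid, Wnt6 fell by 6.91 on the log2 scale with hpo RNAi (SE 0.61, adjusted p = 3.95e-07, edgeR's quasi-likelihood test) and fell by 6.34 with yki RNAi (SE 0.61, adjusted p = 9.63e-07). The late groups held only 42 Wnt6 counts with hpo RNAi and 34 with yki RNAi, so the size of these falls is uncertain. The filter on low counts used libraries of all stages, including the earlier ones where Wnt6 was high. Mid against early, Wnt6 fell by 2.01 with hpo RNAi (SE 0.45, adjusted p = 0.0197) and fell by 2.18 with yki RNAi (SE 0.45, adjusted p = 0.0264). The earlier step was less certain: with hpo RNAi it was lost without mid replicate 2 (adjusted p = 0.099) or 3 (0.0798) and when only the compared libraries were fitted (0.057). With yki RNAi it was lost in 5 of 6 fits that left out 1 library, all but the one without early replicate 2, with an adjusted p of up to 0.135.

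Wnt4, wg, Wnt6 and Wnt10 lie side by side on chromosome arm 2L. In the annotation BDGP6.54, wg spans 2L:7307159-7316265 on the plus strand. Wnt4 (2L:7255419-7277171, minus strand) ends 29.987 kb to its left with no annotated gene between, and Wnt6 (2L:7333714-7352542, plus strand) begins 17.448 kb to its right, past lncRNA:CR45304. Wnt10 follows 10.836 kb after Wnt6 and held 0 to 48 counts per library. Across this interval the neighbours did not share one stage profile: wg and Wnt6 were lowest late, whereas Wnt4 was highest late.

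**Figure D2:**
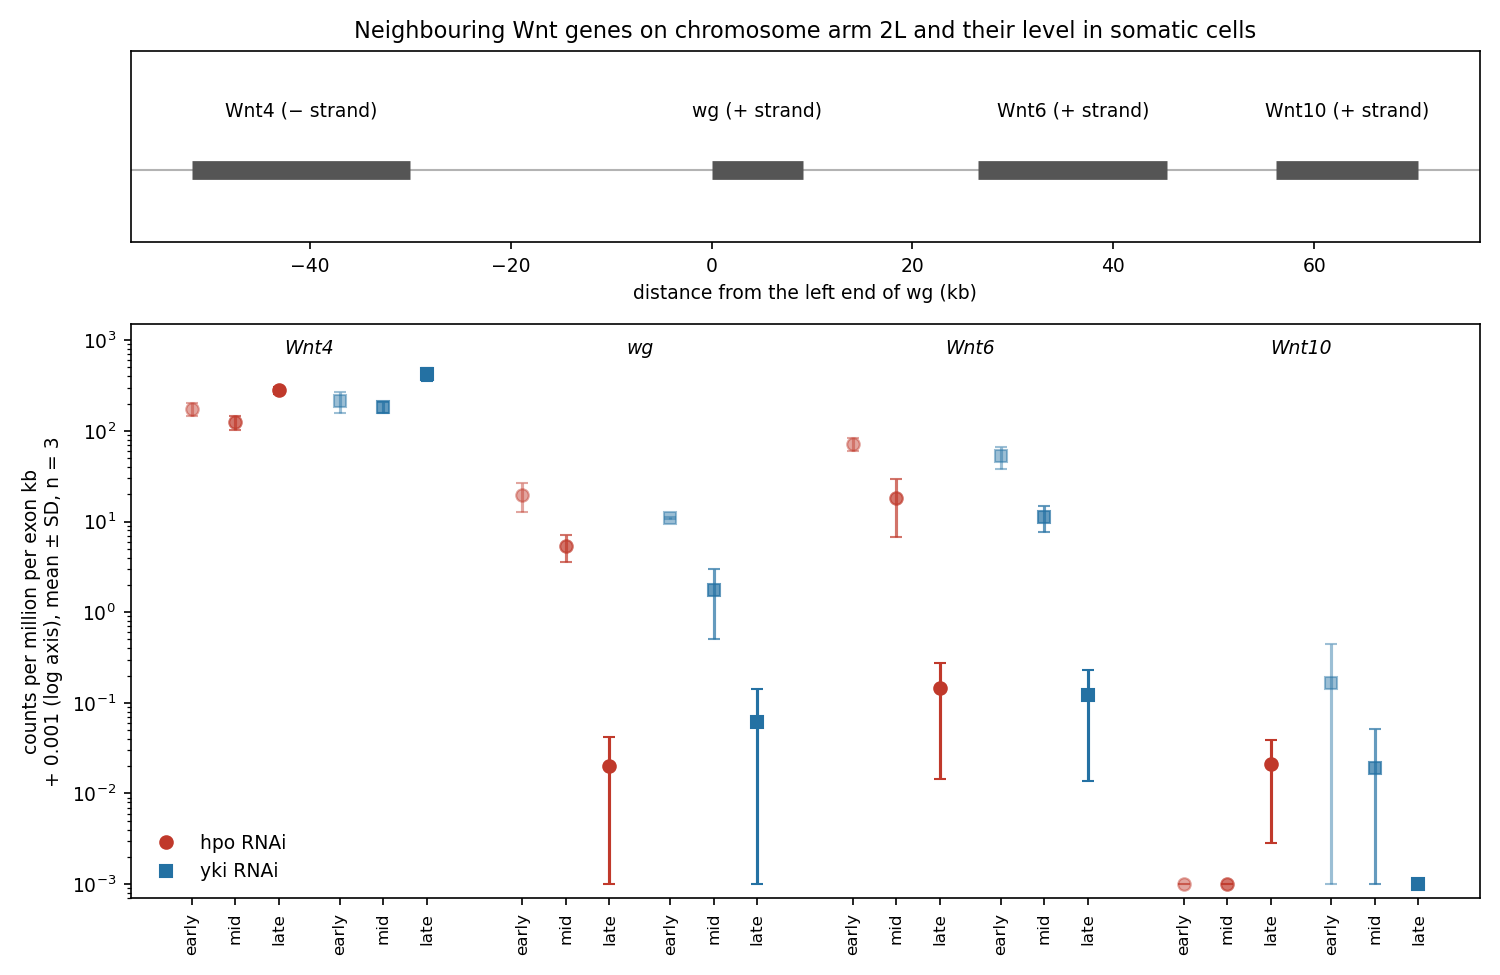
Top, extent of Wnt4, wg, Wnt6 and Wnt10 as distance in kb from the left end of wg. Bottom, level in somatic cells as CPM per exon kb on a log axis after adding 0.001 (mean ± SD, n = 3 libraries), by stage with hpo RNAi (circles) and yki RNAi (squares). From the mid to the late stage Wnt4 goes up while wg and Wnt6 drop, and Wnt10 is at or near 0 throughout.

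The genes most like wg over the 18 somatic libraries were found by the root mean square difference of log2(CPM + 0.5), each gene centred on its own mean. Of 10671 genes ranked, Wnt6 stood at place 4 with a difference of 0.962. The others among the first 5 were 5-HT2A, a serotonin receptor gene (0.776), CG10019 (0.926), CG10512 (0.953) and SP1173 (0.993). The gene at the first place, 5-HT2A, averaged 48.1, 14.6 and 0.06 CPM over the early, mid and late stages with hpo RNAi and 40.1, 9.78 and 0.16 CPM with yki RNAi. Among the other members, Wnt2 ranked 62, fz3 70 and Notum 137, whereas fz2 ranked 10105 and Wnt4 9520. These ranks describe a shared stage profile in the same libraries and say nothing of shared control.

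Wnt2 (FBgn0004360), a ligand with known roles in male gonad and muscle development, kept a high level through the mid stage and then dropped. In hpo RNAi cells it had 211, 196 and 264 CPM early, 204, 146 and 178 CPM mid, and 28.8, 53.9 and 41.1 CPM late. In yki RNAi cells it had 176, 184 and 152 CPM early, 117, 118 and 113 CPM mid, and 28.3, 25.9 and 28.9 CPM late. Late libraries lay below all mid libraries under both hairpins. Late against mid, Wnt2 fell by 2.06 with hpo RNAi (SE 0.18, adjusted p = 4.21e-07) and fell by 2.07 with yki RNAi (SE 0.19, adjusted p = 3.71e-07).

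Wnt4 (FBgn0010453), a ligand needed for cell movement in fly ovary development, moved the other way. With hpo RNAi it had 514, 700 and 557 CPM early, 438, 483 and 332 CPM mid, and 1027, 937 and 860 CPM late. With yki RNAi it had 911, 678 and 558 CPM early, 720, 576 and 560 CPM mid, and 1458, 1660 and 1175 CPM late. The late libraries were the highest within each hairpin. Late against mid, the log2 change of Wnt4 was 1.20 with hpo RNAi (SE 0.19, adjusted p = 2.54e-04), and it was 1.21 with yki RNAi (SE 0.19, adjusted p = 2.76e-04).

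Wnt5 (FBgn0010194), a ligand best known in axon guidance through the receptor Derailed, was level by comparison. Its group means ran from 68.2 to 93.9 CPM in the soma, and no stage or RNAi comparison passed the test, with the largest stage difference a log2 of 0.46 in yki RNAi late against mid (SE 0.23, adjusted p = 0.218).

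To set levels of different ligands beside each other, CPM were divided by exon length in kb. Wnt4 made up 45.2%, 50.9% and 87.6% of the summed level of the 5 ligands in the early, mid and late soma with hpo RNAi, and 56.8%, 69.0% and 92% with yki RNAi (means of 3 libraries). Wnt2 held 25.9%, 32.3% and 5.82% with hpo RNAi and 20.8%, 19.6% and 2.74% with yki RNAi. The share of wg was 5.04% early and 2.16% mid with hpo RNAi, 3.02% and 0.661% with yki RNAi, and at most 0.0152% late. The summed level itself was not lowest late: it was 387 ± 30.7, 244 ± 30.1 and 319 ± 21.0 CPM per kb with hpo RNAi, and 371 ± 64.1, 266 ± 27.1 and 461 ± 70.5 CPM per kb with yki RNAi (SD, n = 3).

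**Figure D3:**
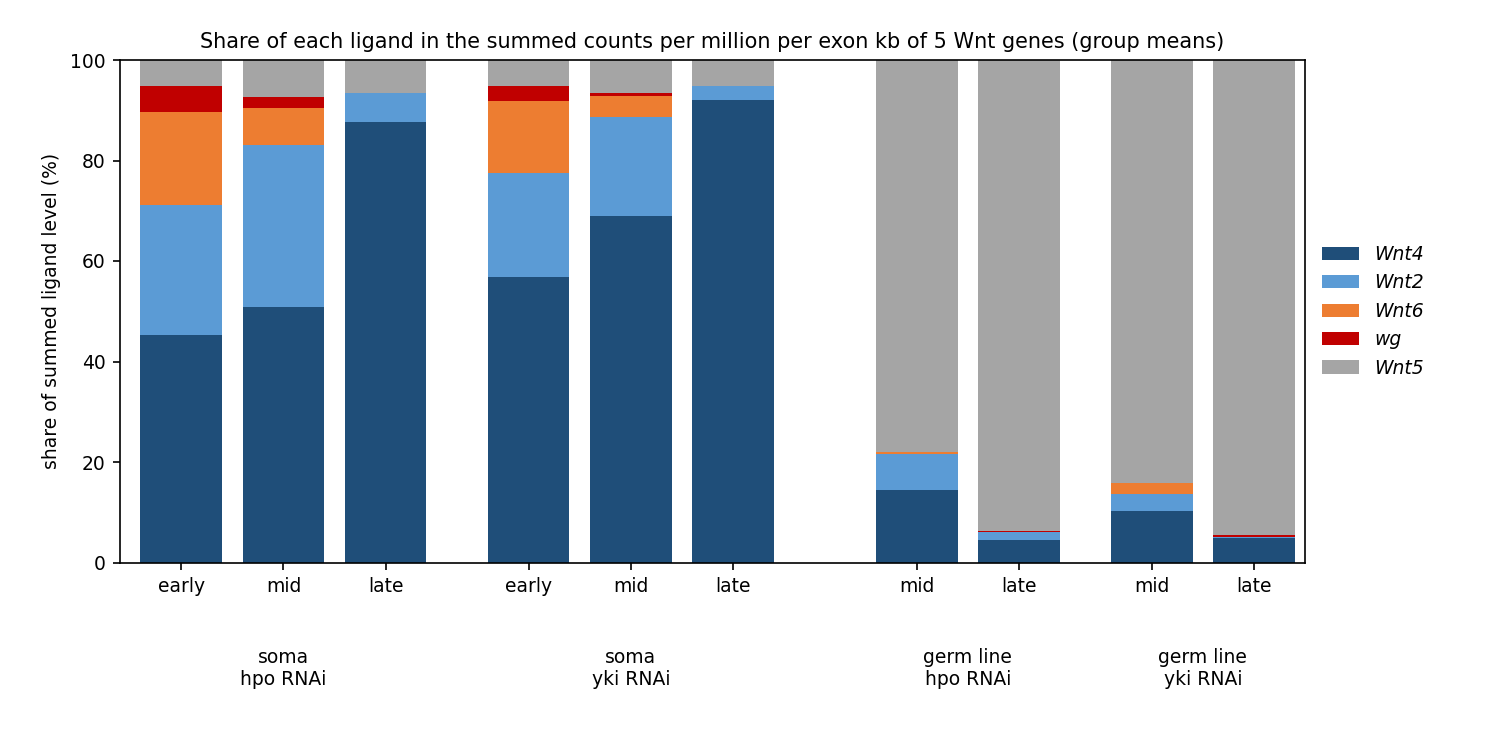
Mean share (%) of Wnt4, Wnt2, Wnt6, wg and Wnt5 in their summed CPM per exon kb, by group of 3 libraries, with the soma on the left and the germ line on the right. Wnt4 takes 87.6% and 92% of the late soma with hpo RNAi and yki RNAi, and Wnt5 takes 78.1% to 94.6% in the germ line groups.

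The receptor Frizzled 2 (fz2, FBgn0016797), which binds Wingless with high affinity, was higher late than early with both hairpins. With hpo RNAi, fz2 had 412, 351 and 300 CPM early, 379, 389 and 246 CPM mid, and 855, 939 and 990 CPM late. The yki RNAi soma had fz2 at 294, 222 and 233 CPM early, 519, 425 and 647 CPM mid, and 750, 659 and 933 CPM late. With hpo RNAi the late libraries stood clear of both earlier stages, whereas with yki RNAi the 3 stages formed separate steps. Late against mid, fz2 rose by 1.49 with hpo RNAi (SE 0.20, adjusted p = 2.78e-05), and the difference was 0.55 with yki RNAi (SE 0.19, adjusted p = 0.0658). Mid against early, it rose by 1.12 with yki RNAi (SE 0.19, adjusted p = 0.00535, but 0.0917 with only the compared libraries), and the difference was -0.04 with hpo RNAi (SE 0.19, adjusted p = 0.982). Whether the mid steps differ between the hairpins was not tested. Late against early, the interaction of RNAi and stage was -0.23 (SE 0.27, adjusted p = 0.994).

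Frizzled (fz, FBgn0001085), a receptor of both the canonical and the planar polarity branch, stayed between 83.0 and 139 CPM in the 18 somatic libraries, and no stage or RNAi comparison in the soma passed the test. Its group means were 112 ± 12.7, 95.5 ± 12.1 and 109 ± 24.2 CPM with hpo RNAi and 97.3 ± 7.74, 117 ± 1.25 and 130 ± 11.4 CPM with yki RNAi (SD, n = 3), early to late. Per exon kb, fz2 therefore took 59.2% of the summed level of the 3 receptors in the early soma and 81.3% in the late soma with hpo RNAi, and 54.3% and 75% with yki RNAi. That sum was 80.6, 72.2 and 154 CPM per kb with hpo RNAi and 61.9, 104 and 139 CPM per kb with yki RNAi.

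The third receptor gene, fz3 (FBgn0027343), is known in fly imaginal discs as a target of Wg signalling that dampens it. The hpo RNAi soma had fz3 at 14.3, 10.4 and 12.8 CPM early, 11.1, 3.17 and 3.71 CPM mid, and 1.23, 1.17 and 2.33 CPM late. In yki RNAi cells it had 11.7, 8.53 and 9.81 CPM early, 6.19, 5.0 and 8.23 CPM mid, and 1.43, 0.788 and 1.53 CPM late. Late against mid, fz3 fell by 1.84 with hpo RNAi (SE 0.53, adjusted p = 0.021) and fell by 2.37 with yki RNAi (SE 0.54, adjusted p = 0.00536). The hpo RNAi call rested on single libraries: its adjusted p was 0.18 without mid replicate 1, 0.106 without late replicate 1 and 0.12 without late replicate 2, and it was also lost with no filter on low counts (0.0514) and with only the compared libraries (0.0677).

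Notum (FBgn0044028) encodes a secreted enzyme that inactivates Wnt proteins by removing their lipid, and in discs it is induced by Wg. In hpo RNAi cells it had 7.94, 15.2 and 11.6 CPM early, 6.78, 0.25 and 1.83 CPM mid, and 1.60, 0.915 and 0.805 CPM late. With yki RNAi it had 16.6, 5.59 and 14.4 CPM early, 3.72, 4.37 and 5.55 CPM mid, and 3.12, 1.63 and 1.12 CPM late. Late libraries lay below the early ones under both hairpins. Neither single step passed the test, but late against early Notum fell by 3.33 with hpo RNAi (SE 0.83, adjusted p = 0.00857) and fell by 2.60 with yki RNAi (SE 0.80, adjusted p = 0.0287). The first call was lost without late replicate 3 of hpo RNAi (adjusted p = 0.0512). The second was lost without early replicate 1 or 3 or late replicate 2 or 3 of yki RNAi, with an adjusted p of up to 0.128.

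Naked cuticle (nkd, FBgn0002945), an intracellular inhibitor that acts on Dishevelled and is induced by Wg in the embryo, gave no stage call. Its group means were 39.1 ± 14.7, 23.0 ± 5.25 and 31.7 ± 8.06 CPM with hpo RNAi and 26.1 ± 6.42, 15.7 ± 2.58 and 28.9 ± 8.95 CPM with yki RNAi (SD, n = 3), early to late. Its largest step to the late stage was a log2 of 0.87 with yki RNAi (SE 0.30, adjusted p = 0.0608), which DESeq2 called (adjusted p = 0.045). In the late soma, where wg was near 0, nkd still averaged 31.7 CPM with hpo RNAi and 28.9 CPM with yki RNAi, while fz3 and Notum had their lowest somatic means.

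Counted over the 9 members other than wg, late against mid in the soma gave 2 higher (Wnt4, fz2) and 3 lower (Wnt2, Wnt6, fz3) with hpo RNAi, and 1 higher (Wnt4) and 3 lower (Wnt2, Wnt6, fz3) with yki RNAi. Of all genes tested, 15.8% were called in that comparison with hpo RNAi (9.43% higher and 6.38% lower late) and 13.2% with yki RNAi (6.65% higher and 6.53% lower). Mid against early gave 1 lower (Wnt6) with hpo RNAi, with 2.72% of all genes called (1.15% higher, 1.56% lower), and 1 higher (fz2) and 1 lower (Wnt6) with yki RNAi, with 0.684% called (0.534% higher, 0.15% lower). Late against early, a comparison added after the data were seen, gave 2 higher (Wnt4, fz2) and 4 lower (Wnt2, Wnt6, fz3, Notum) under each hairpin. There 15.8% of all genes were called with hpo RNAi (8.54% higher, 7.3% lower) and 19.3% with yki RNAi (11.1% higher, 8.2% lower). The Wnt6 calls against the late stage rest on few late counts. In the late against early comparison the Wnt4 call with hpo RNAi, a log2 of 0.73 (SE 0.19, adjusted p = 0.013), was lost without early replicate 1 (0.0667) or late replicate 1 (0.0629). The median log2 change of the 9 members late against mid was 0.20 with hpo RNAi and 0.14 with yki RNAi, beside 0.04 and 0.00 over all genes.

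Other cell markers moved with stage in the same libraries. The somatic ovary markers summed to 6851 to 7349 CPM in the late soma and to 2469 to 4756 CPM in the earlier soma. The 6 hemocyte markers summed to 940 to 1126 CPM with hpo RNAi late and 1670 to 1858 CPM with yki RNAi late, against 27.1 to 180 CPM at the earlier stages. That sum was carried by Pxn and srp, while the defining hemocyte genes Hml, NimC1, eater and He were at most 1.89 CPM in any somatic library and He was at 0 in all 18. The muscle list (7 genes) summed to 556 to 743 CPM late and 354 to 569 CPM earlier, and its gene Act57B reached 108 CPM in a late library. The trachea list (4 genes) summed to 25.0 to 28.2 CPM with hpo RNAi late, against 3.20 to 5.81 CPM at the earlier hpo RNAi stages, and to 10.6 to 16.4 CPM with yki RNAi late, against 3.68 to 15.0 CPM earlier. Its gene btl reached 25.8 CPM, while trh, verm and serp were at most 1.09, 3.30 and 2.85 CPM in any somatic library. Neuron markers (4 genes) summed to at most 51.0 CPM and fat body markers to at most 8.15 CPM in the soma. The part of these shifts in the stage differences was not tested.

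Between the hairpins, 2 ligands of the soma differed in opposite directions on the average over the 3 stages. Wnt2 was higher with hpo RNAi than with yki RNAi, at 0.51 on the log2 scale (SE 0.10, adjusted p = 0.00367), and Wnt4 was lower with hpo RNAi, with a log2 of -0.49 (SE 0.11, adjusted p = 0.00982). Both calls held in each of the 18 fits that left out 1 library. Those were 2 of 10 members, where 5.48% of all genes were called (1.76% higher and 3.72% lower with hpo RNAi). Stage by stage, the Wnt2 difference was 0.38, 0.57 and 0.58 early to late and the Wnt4 difference -0.28, -0.58 and -0.60, none of them past the threshold.

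**Figure D4:**
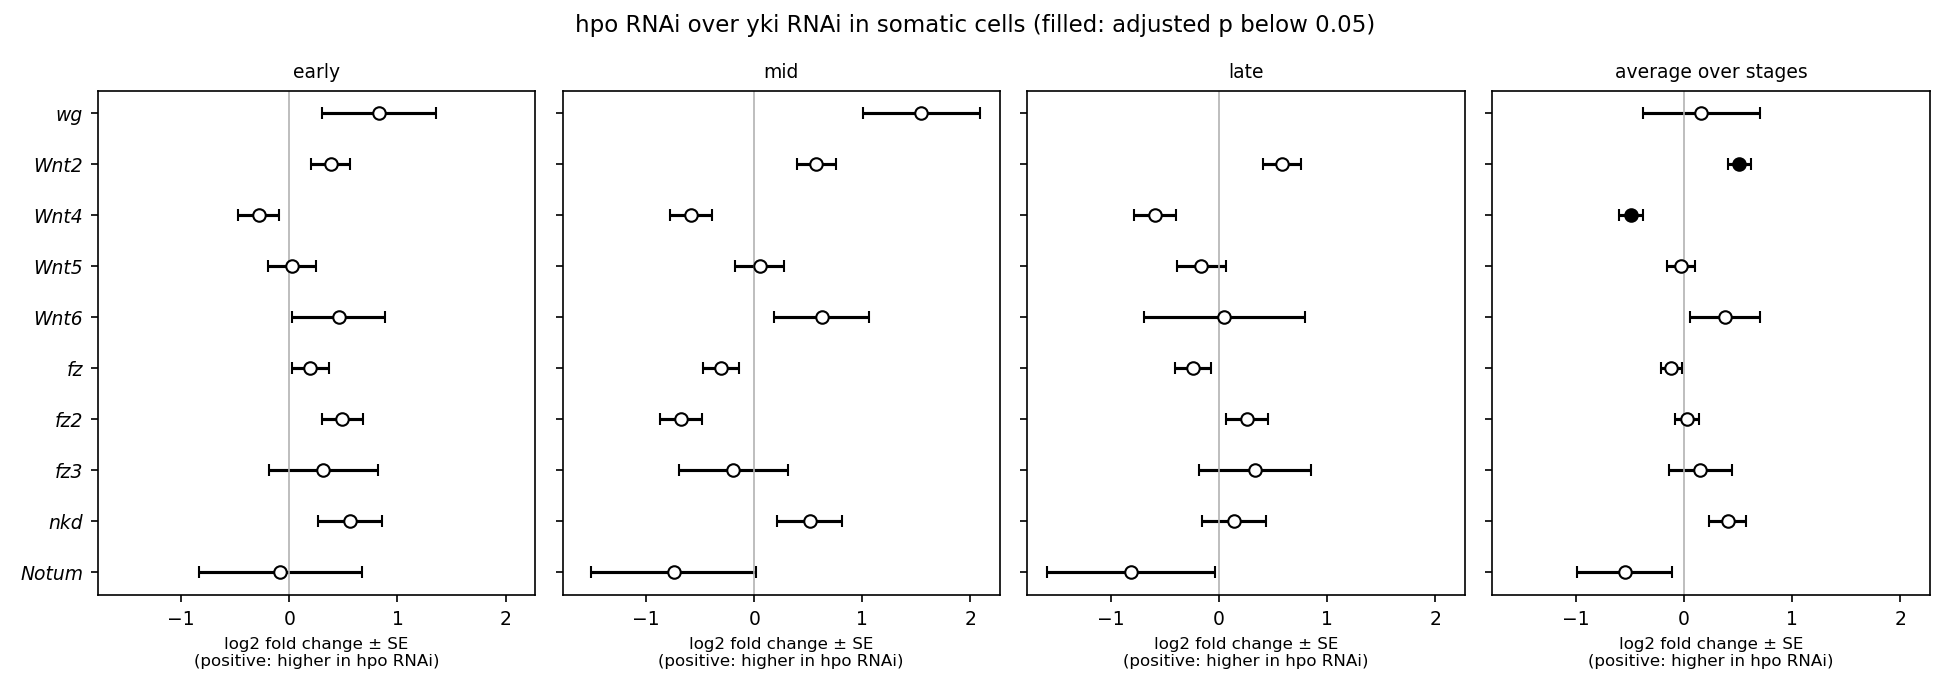
Differences between the hairpins in somatic cells, hpo RNAi over yki RNAi on the log2 scale (bars are ± SE), for the 10 members at each stage and on average over stages. Filled points have an adjusted p below 0.05, and wg late is not drawn because it rests on 5 and 16 counts. On average over stages Wnt2 lies at 0.51 and Wnt4 at -0.49, the 2 filled points.

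At a single stage no member was called between hpo RNAi and yki RNAi in the soma by edgeR's quasi-likelihood test. Of all genes, 2.45% were called early, 2.5% mid and 1.03% late. At an unadjusted p under 0.05 there were 2, 4 and 2 members, and DESeq2 called 0, 3 (Wnt2, Wnt4 and fz2) and 0. In the mid soma fz2 had the smallest adjusted p, with 338 ± 79.9 CPM with hpo RNAi and 531 ± 111 CPM with yki RNAi (SD, n = 3 each), a log2 of -0.68 (SE 0.19, adjusted p = 0.0784).

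Early and mid wg libraries of hpo RNAi all lay above those of yki RNAi. The fitted log2 differences were 0.83 early (SE 0.53, adjusted p = 0.423) and 1.55 mid (SE 0.54, adjusted p = 0.187), so a difference between hairpins was not established. Early libraries of the hairpins also differed in mitochondrial counts, 3.27% to 4.15% of the total with hpo RNAi and 6.05% to 10.6% with yki RNAi. The mid soma with hpo RNAi had 3.92% in replicate 1, against 13.7% and 13.2% in replicates 2 and 3. Replicate 1 had the smallest total of the somatic libraries (15334185 counts) and the highest wg, Wnt6, fz3 and Notum of its group. The part of these differences in the results was not tested. Of the 9 members other than wg, none showed an interaction of RNAi with the late against early change (0 of 9 by edgeR's quasi-likelihood test and by DESeq2, and 0 at an unadjusted p under 0.05, with 0.375% of all genes called).

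In the germ line the ligand set was another one. Wnt5 was the main ligand RNA there, at 62.6 to 76.0 CPM in the group means, and it made up 78.1%, 93.7%, 84.2% and 94.6% of the summed ligand level per kb in hpo RNAi mid, hpo RNAi late, yki RNAi mid and yki RNAi late. The first of these shares was 52.6% in replicate 1 of hpo RNAi mid and averaged 90.9% over the other 2 libraries. The sum of the ligands was 16.6 to 22.4 CPM per kb in germ line groups, against 244 to 461 CPM per kb in somatic groups. Wnt4, the main somatic ligand, had 31.5, 3.85 and 1.49 CPM in hpo RNAi mid and 1.59 to 10.3 CPM in the other germ line libraries. Wnt6 was at 0 in 6 of 12 germ line libraries and Notum in 7.

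The germ line library with the highest somatic markers, hpo RNAi mid replicate 1, also had the highest germ line value of Wnt4 (31.5 CPM), Wnt2 (7.34 CPM), fz2 (68.7 CPM) and nkd (2.42 CPM). Wnt6 went the other way, with 0 counts in that library, against 9 and 23 in replicates 3 and 4 of the group. For wg and Notum the whole group held 0 and 1 counts, too few to set replicate 1 apart. Without replicate 1, the soma over germ line difference of Wnt4 in hpo RNAi mid was a log2 of 7.76 (SE 0.49), against 5.56 (SE 0.67) with that library. For nkd it was 6.19 without that library and 4.93 with it, and for Wnt2 it was 6.83 and 6.0. Between the hairpins in the mid germ line, the Wnt4 difference was -1.53 without that library and 0.63 with it, neither of them called.

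Soma over germ line, 7 members passed the filter on low counts in the germ line as well, and 5 of these were higher in the soma in hpo RNAi mid and in yki RNAi mid: Wnt2, Wnt4, fz, fz2 and nkd. Of all genes, 37.9% were called in hpo RNAi mid and 38.9% in yki RNAi mid, with 19.4% and 19.5% higher and 18.5% and 19.4% lower in the soma. Late, 6 of the 7 were higher and 1 lower in the soma with hpo RNAi (36.7% of all genes called, 19.1% higher and 17.6% lower), and 6 were higher and 1 lower with yki RNAi (38.1%, 19.8% higher and 18.3% lower). The median log2 difference over the 7 was 3.31 (3.70 without germ line hpo RNAi mid replicate 1) and 4.14 mid and 5.06 and 4.88 late for hpo RNAi and yki RNAi. Over all genes the medians were -0.09 to -0.13. The other members, wg, Wnt6 and Notum, entered the fit only through the soma, so their calls are largely set by the filter and are not counted here. In hpo RNAi mid they had 1523, 4735 and 214 counts in the soma, against 0, 32 and 1 in the germ line. In yki RNAi mid they had 792, 4501 and 572 counts in the soma, against 5, 160 and 21 in the germ line.

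**Figure D5:**
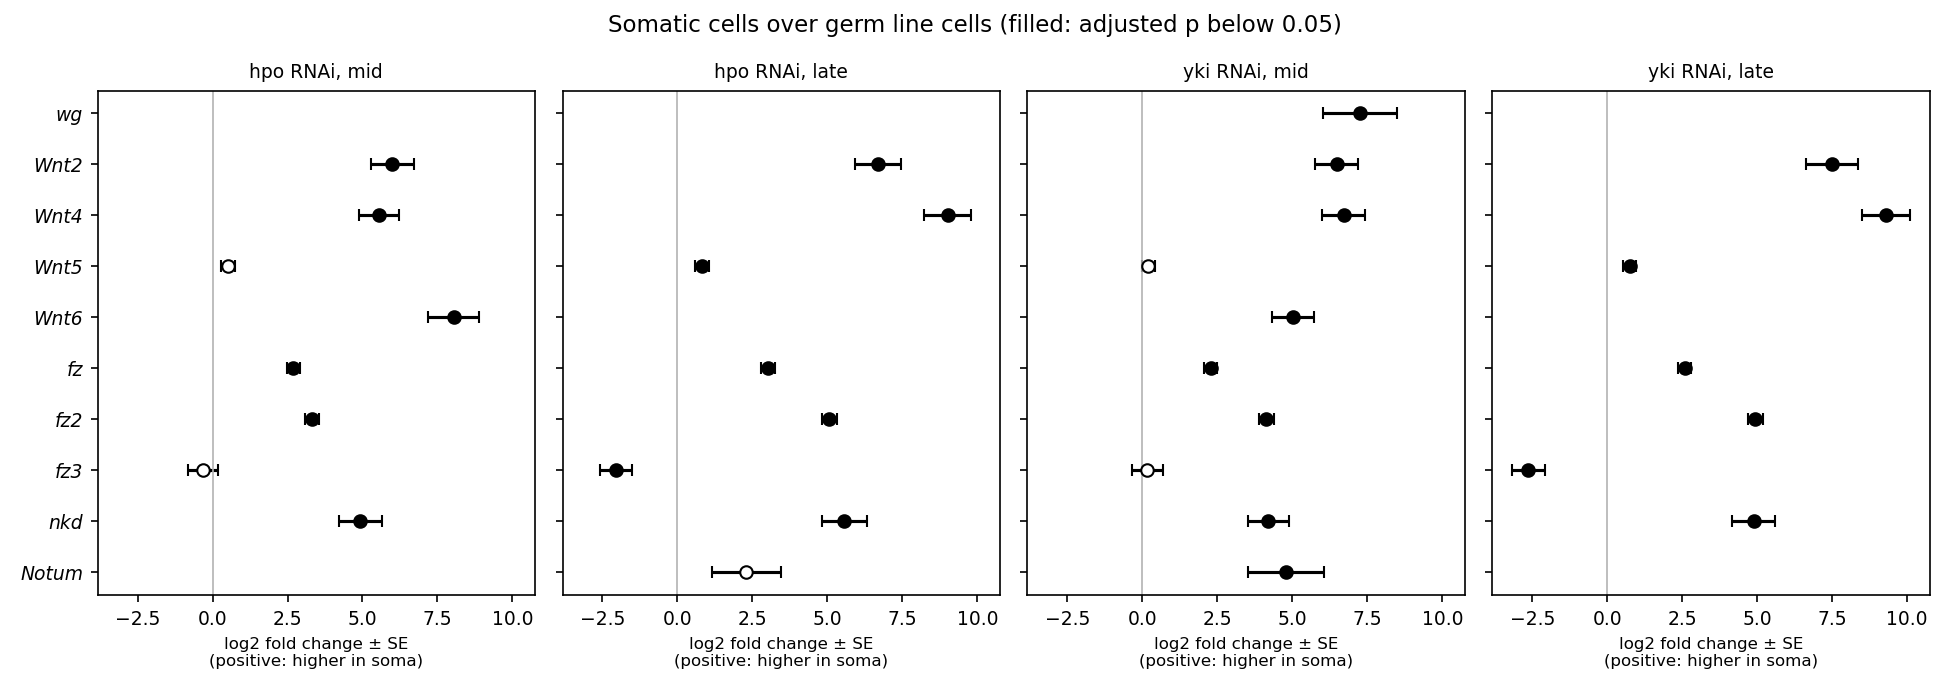
Log2 fold change of somatic over germ line cells (bars are ± SE) in the 4 pairs of groups. Filled points have an adjusted p below 0.05. Members with 3 or fewer germ line counts in a group, and wg late, are not drawn, and wg, Wnt6 and Notum entered the fit only through the soma. Wnt4 reaches 9.01 and 9.30 late, and fz3 lies at -2.04 and -2.63 late.

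The receptors fz and fz2 were read in both cell types and higher in the soma. In the late soma with hpo RNAi, fz2 had 855, 939 and 990 CPM, against 40.0, 36.3 and 34.6 CPM in the germ line, a log2 of 5.06 (SE 0.26, adjusted p = 3.22e-14). For fz the late soma had 110, 84.2 and 133 CPM with hpo RNAi, against 19.3, 18.7 and 15.7 CPM in the germ line, a log2 of 3.02 (SE 0.22, adjusted p = 2.04e-11). With yki RNAi late the differences were 4.94 for fz2 (SE 0.25) and 2.59 for fz (SE 0.21).

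The gene fz3 was the member that was higher in the germ line late. In hpo RNAi late it had 1.23, 1.17 and 2.33 CPM in the soma, against 9.67, 7.07 and 9.16 CPM in the germ line, a log2 of -2.04 (SE 0.53, adjusted p = 0.00291). In yki RNAi late it had 1.43, 0.788 and 1.53 CPM in the soma, against 12.6, 4.88 and 13.2 CPM in the germ line, a log2 of -2.63 (SE 0.54, adjusted p = 2.94e-04). Mid, the difference was -0.32 with hpo RNAi (adjusted p = 0.668) and 0.17 with yki RNAi (adjusted p = 0.831). Within the germ line fz3 took 14% to 19.3% of the summed receptor level per kb, against 0.237% to 4.32% in somatic groups.

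Wnt5 was close between the cell types. It was called higher in the soma late, with a log2 of 0.82 with hpo RNAi (SE 0.23, adjusted p = 0.00548, but 0.0501 without germ line late replicate 4) and 0.74 with yki RNAi (SE 0.23, adjusted p = 0.011), and not mid. The scaling matters for so small a difference. Over the members and the other Wnt pathway genes, the median fitted log2 difference of soma over germ line, with TMM, was above that of plain CPM. The gap between these medians was 0.37 to 0.47, and it also includes the fit and the 0.5 added to mean CPM. In pooled CPM, the counts of a group's 3 libraries over their summed totals, the late Wnt5 ratio was 1.42 with hpo RNAi and 1.28 with yki RNAi. These ratios differ from the fitted values in pooling as well as in scaling. The yki RNAi mid differences of Wnt5 and fz3, neither of them called, were 0.20 and 0.17 with TMM and changed side in plain CPM, at ratios of 0.906 and 0.714.

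Late values of Wnt6 rest on few counts. It had 42 counts in the late soma with hpo RNAi against 1 in the germ line, a ratio of 33.9 in pooled CPM (exact 95% interval 5.76 to 1369). With yki RNAi late it had 34 counts in the soma against 0 in the germ line, at least 9.99-fold higher. Notum late with hpo RNAi had 1.60, 0.915 and 0.805 CPM in the soma, against 0.263, 0.64 and 0 CPM in the germ line. With yki RNAi late it had 171 counts in the soma against 0 in the germ line, at least 50.3-fold higher. Both bounds are against a floor of 3 counts over the germ line group.

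Within the germ line 7 members could be tested, wg, Wnt6 and Notum having too few counts. None was called between hpo RNAi and yki RNAi mid, late or on average by edgeR's quasi-likelihood test, where 0.103%, 0.187% and 0.635% of all genes were called. At an unadjusted p under 0.05 there was 1 in each, fz, and DESeq2 called 0, 0 and 1. Frizzled had 22.3, 17 and 20.4 CPM with hpo RNAi mid, against 27.7, 42.2 and 22.9 CPM with yki RNAi, and 19.3, 18.7 and 15.7 CPM with hpo RNAi late, against 28.3, 28.5 and 28.8 CPM. The groups did not overlap at either stage, and the average log2 difference was -0.65 (SE 0.18, adjusted p = 0.173, and 0.0366 by DESeq2). It passed without yki RNAi mid replicate 4 (adjusted p = 0.0325).

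Late against mid in the germ line gave 0 of 7 members under either hairpin by edgeR's quasi-likelihood test and by DESeq2, with 0% of all genes called with hpo RNAi and 0.0187% with yki RNAi. One member, Wnt4 with hpo RNAi, had an unadjusted p under 0.05, with a log2 of -2.30 (SE 0.85, adjusted p = 0.71), and this was -0.17 (SE 0.63) without mid replicate 1. The interactions of RNAi with soma over germ line gave 0 of 10 members mid (0.165% of all genes called) and late (0.182%) by edgeR's quasi-likelihood test and by DESeq2, with 3 and 1 at an unadjusted p under 0.05.

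Of 34 other genes of the pathway, 33 were in the table (WntD was not matched) and 32 passed the filter in the soma. Late against mid, 13 of the 32 were higher and 0 lower with hpo RNAi, and 8 were higher and 0 lower with yki RNAi. Higher calls made up 9.43% of all genes with hpo RNAi and 6.65% with yki RNAi. The median log2 change of the list was 0.52 and 0.33, beside 0.04 and 0.00 over all genes. The list was drawn up with earlier results of these data known, so its direction is a description.

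The co-receptor gene arrow (arr), which acts with Frizzled in the canonical branch, averaged 510 ± 76.5 CPM late and 155 ± 36.1 CPM mid with hpo RNAi, a log2 of 1.73 (SE 0.20, adjusted p = 5.53e-06). With yki RNAi it averaged 348 ± 35.9 CPM late and 141 ± 18.7 CPM mid, a log2 of 1.3 (SE 0.19, adjusted p = 1.32e-04). Derailed (drl), a receptor of Wnt5, averaged 229 ± 40.5 CPM late and 8.02 ± 5.81 CPM mid with hpo RNAi, a log2 of 4.84 (SE 0.48, adjusted p = 1.15e-06). With yki RNAi drl averaged 140 ± 49.2 CPM late and 28.2 ± 8.63 CPM mid, a log2 of 2.30 (SE 0.42, adjusted p = 0.00102). Both receptor genes rose late with either hairpin, as Wnt4 did. The planar polarity genes stan, Vang and pk and the drl relative dnt were also called higher late with both hairpins. Their log2 changes were 2.93, 0.78, 0.88 and 1.08 with hpo RNAi, and 1.31, 0.90, 1.13 and 0.76 with yki RNAi.

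Between the hairpins in the soma, starry night (stan), which encodes a cadherin of planar polarity, was called early and mid. It averaged 11.2 ± 3.72 CPM early and 6.77 ± 2.33 CPM mid with hpo RNAi, against 37.3 ± 15.8 CPM early and 30.9 ± 6.94 CPM mid with yki RNAi (SD, n = 3 each). The log2 differences were -1.75 early (SE 0.38, adjusted p = 0.016) and -2.25 mid (SE 0.39, adjusted p = 0.0027). In the mid soma drl was lower too, by a log2 of -1.81 (SE 0.42, adjusted p = 0.0217). Late, the glypican gene dally, whose product helps spread Wnt proteins on cell surfaces, averaged 320 ± 5.52 CPM with hpo RNAi and 120 ± 24.7 CPM with yki RNAi, a log2 of 1.42 (SE 0.20, adjusted p = 5.46e-04). These were 1, 2 and 1 of 32 genes early, mid and late, and DESeq2 called 3, 2 and 1. Over all genes 2.45%, 2.5% and 1.03% were called, so single calls among 32 genes are near the background. On average over the stages 3 of 32 were called, where 5.48% of all genes were. These were stan, dally and arr, with log2 differences of -1.55, 0.59 and 0.40. In the germ line 0 of 31 were called between the hairpins mid or late by edgeR's quasi-likelihood test and by DESeq2, with 2 mid and 1 late at an unadjusted p under 0.05.

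Soma over germ line, 14 of 32 other pathway genes were higher and 3 lower in hpo RNAi mid, 15 and 2 in hpo RNAi late, 12 and 6 in yki RNAi mid, and 14 and 4 in yki RNAi late. That was 43.8%, 46.9%, 37.5% and 43.8% higher and 9.38%, 6.25%, 18.8% and 12.5% lower, beside 19.4%, 19.1%, 19.5% and 19.8% higher and 18.5%, 17.6%, 19.4% and 18.3% lower over all genes. The gene wls, whose product carries Wnt proteins to the cell surface for secretion, averaged 344 ± 13.8 CPM in the soma and 62.3 ± 5.56 CPM in the germ line of hpo RNAi late, a log2 of 2.87 (SE 0.13, adjusted p = 5.11e-15). The glypican gene dally averaged 320 ± 5.52 CPM in the soma and 0.572 ± 0.195 CPM in the germ line there, and dlp averaged 217 ± 30.7 CPM in the soma and 75.9 ± 6.63 CPM in the germ line.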

How the data were processed

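RNA of sorted GFP-positive ovarian cells was sequenced as single-end 50 bp reads of polyA RNA, per the labels' protocols. The table deposited by the authors holds estimated counts per gene (expected counts, not normalised), of which 86.5% were whole within 1e-06. The submitters' processing notes name bcl2fastq 2.2, STAR 2.7.6a, RSEM 1.3.3 and DESeq2 1.26.0. The genome build and annotation are not given in the sources used here. Estimated counts share ambiguous reads between similar genes, and the table does not say how many.

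The count table held 18 columns of samples of another series, which were not used. Of 32 labelled samples, 30 libraries in 10 groups were used, and 2 early germ line samples were not analysed here. Gene symbols, positions and exon lengths came from the annotation BDGP6.54, in which 16206 of 16257 gene IDs were found. The members and gene lists were chosen with earlier results of these data known. Counts were rounded and tested over the whole table with edgeR's quasi-likelihood test (edgeR 4.0.16, R 4.3.3, TMM scaling, genes kept by filterByExpr with a minimum count of 10). Group means were fitted without a replicate block, in 18 somatic libraries (10672 genes), 12 germ line libraries (10717 genes) and all 30 (12089 genes). A gene was called at a Benjamini-Hochberg adjusted p under 0.05 over all genes of its fit, and every adjusted p is from this test unless DESeq2 (version 1.42.0) is named. Tests over replicates measure the spread between libraries within groups, estimated over all groups of a fit, including those outside a comparison. CPM are counts over the library total without TMM scaling, and intervals and floors of 3 counts cover counting error only. The members and the 5 genes most like wg were named. Named pathway genes were drawn from the up to 4 called ones of smallest adjusted p per comparison, not all of which are given. Their values in other comparisons are given where these bear on them. On simulated data with 200 genes changed by a log2 of 2, 96.5% were recovered for hpo RNAi over yki RNAi in the early soma (10672 genes), 98% in the mid germ line (10717 genes) and 96% for soma over germ line in hpo RNAi mid (12089 genes). Of the calls, 3.02%, 1.01% and 6.34% were false. The changed genes all averaged at least 10 CPM. The recovery therefore does not cover smaller differences, such as those between the hairpins, or members at lower levels. All other genes had the same mean in every library of a fit. The simulated shares thus do not cover a contrast with many changed genes, such as soma over germ line in hpo RNAi mid (37.9% called).

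Alternatives were DESeq2, RLE size factors, no filter and a stricter filter on low counts, removal of a length trend, fits of the compared libraries alone, a replicate block, and leaving out each library in turn. Late against early in the soma was added after the data were seen. No sequences were used.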

Additional observations from a re-analysis of the deposited data

How the results depend on the processing

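No called difference of a member reversed its sign. Members called between the hairpins in the mid soma numbered 3 with DESeq2 and 1 (fz2) with the length trend removed, against 0. In the late soma there was 1 (Wnt4, adjusted p = 0.0244) with the compared libraries alone, against 0. The germ line average gave 1 (fz) with DESeq2, against 0. Mid against early in the soma gave 0 with hpo RNAi and 1 with yki RNAi when the compared libraries alone were fitted, against 1 and 2.

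Leaving out 1 library at a time gave 0 to 1 calls between the hairpins in the mid soma, 0 to 1 in the late soma and 0 to 1 in the germ line average. Mid against early in the soma it gave 0 to 2 with hpo RNAi and 1 to 2 with yki RNAi, late against mid 4 to 5 and 4 to 6, and late against early 5 to 6 with each. Soma over germ line, over all 10 members, gave 8 to 8 and 6 to 8 (hpo RNAi mid and late), and 8 to 8 and 8 to 9 (yki RNAi mid and late), against 8, 8, 8 and 9; 3 of these members entered only through the soma, and the count over the other 7 was added after seeing the data. In the mid soma fz2 was called without hpo RNAi mid replicate 2 (adjusted p = 0.0496). Late against mid with yki RNAi, nkd was called without mid replicate 3 (0.0482) or late replicate 2 (0.0279).

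Whether replicate numbers pair the libraries was not settled. Deviations of same-numbered libraries of the 2 hairpins correlated at -0.117 to 0.304 in the soma (3 of 8 pairs over 0.1). In the germ line they correlated at -0.148 to 0.274 (2 of 4). Libraries of different numbers correlated at -0.316 to 0.322 in the soma (4 of 19 pairs over 0.1). Their germ line correlations were -0.219 to 0.206 (3 of 14). The ranges overlapped, and so few same-numbered pairs cannot exclude pairing. Only member differences called in the main fit, or under an alternative other than leaving out a library, were followed, which gave 66. They include soma over germ line calls of wg, Wnt6 and Notum, which are largely set by the filter. With a replicate block, 65 of these 66 member differences kept their side of the threshold. The exception was Wnt4 late against early with hpo RNAi, at 0.64 (adjusted p = 0.0705). Fits of the compared libraries alone kept 58 of 63, with 3 lost (Wnt6, fz2 and fz3, given above) and 2 gained, Wnt4 between the hairpins late and fz late against early in the yki RNAi soma (0.41, adjusted p = 0.0498). DESeq2 kept 61 of 66, no filter 64, removal of the length trend 65, and RLE size factors and the stricter filter 66 each. With 3 libraries a group, wg, Wnt6 and Notum in the late soma and in the germ line rest on few counts, so differences between those groups were not detectable at this depth unless given above.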
